A study of Homo sapiens with 9 samples.

Results

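The genes described here are 37 that earlier work outside this series reported as targets of WT1, listed by name, with no value of these arrays in the rule, although earlier results of these data were known when they were listed. Of these, 35 had at least 1 probe set that carried their symbol alone, 70 probe sets in all, out of 22215 probe sets and 11963 genes tested. NR0B1 and AREG had none in the probe annotation and were not analysed here. Each gene is given by its brightest probe set over the 9 arrays, and the other probe sets served as a check.

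RNA was measured in U251, a long-established line from a human glioma, on 9 arrays that form 3 groups of 3. Cultures of the first group received an siRNA against WT1, those of the second a scrambled (non-targeting) siRNA, each at 100 nM with the transfection reagent Oligofectamine. The third group received Oligofectamine alone, so every culture was exposed to the reagent. The sample records give 4 hours on a rocker for all 9 cultures. The series calls the arrays biological triplicates, and no source used here says how many siRNA sequences each product holds. Values are RMA (robust multi-array average) log2 expression, and array medians lay between 6.45 and 6.53. Vimentin, CD44 and fibronectin transcripts, which are strong in such lines, were brighter than 95.3% or more of the probe sets on every array, and NES (nestin) was brighter than 78.3% to 89.4%. The glial marker S100B was brighter than at most 36.5%, and GFAP than 31.9% to 85.3%, with log2 levels of 6.96, 5.36 and 8.13 with the WT1 siRNA, 5.84, 5.54 and 7.99 with scrambled siRNA, and 6.79, 6.68 and 9.25 with reagent. GFAP differed by 0.35 against scrambled siRNA, by −0.76 against reagent and by −1.11 between scrambled siRNA and reagent, and did not pass in any (limma adjusted p = 0.0647 or more). All 3 measured oligodendrocyte markers were dim, as were PTPRC and CD14 of 4 microglial markers and PECAM1 and CDH5 of 4 endothelial markers. The summed linear level of the endothelial markers was 206 to 221 on arrays with the WT1 siRNA, 198 to 227 with scrambled siRNA and 195 to 201 with reagent, and the sums of the microglial and oligodendrocyte markers overlapped between all groups. Of 3 measured neuronal markers 0 were dim (NEFL was brighter than 96.5% to 98.9%), and their sums, 2665 to 4890, 3461 to 5662 and 2719 to 5119 in the same order, overlapped too. The part of these markers in the results was not tested. Because these are bulk cultures, fewer cells with a transcript and less transcript per cell cannot be told apart.

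WT1 is a zinc finger transcription factor that is needed for kidney and gonad development and is found in several cancers, glioma among them. It can activate or repress a gene, depending on its splice form, its partners and the cell, and its reported targets come largely from kidney, gonad and leukaemia cells. They include regulators of apoptosis and the cell cycle, other transcription factors, growth factors with their receptors, and adhesion proteins of the podocyte, the filtering cell of the kidney. Its zinc fingers bind GC-rich DNA, and sites in common use for it are GCGTGGG, the GCGGGGGCG site that it shares with EGR1, and repeats of TCC.

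These motifs were looked up in the 250 bases before to 50 bases after each gene's start, on both strands, in RefSeq sequence (GRCh38.p14). Promoter windows were found for 24 of the 35 genes. Each surrounds a single annotated start, and other starts of the same gene were not searched. GCGTGGG stood in 3 of the 24 (12.5%, against 6.74% of all 27305 windows), GCGGGGGCG in 2 (8.33%, against 5.02%) and TCCTCCTCC in 4 (16.7%, against 3.6%). At least 1 of them stood in 9 (37.5%, against 14.2%). The members' windows were also richer in G and C, with a median of 69.7% against 58.3% over all windows. A match of letters is a description and not a binding site. Below are windows on the strand of the gene, 5′ to 3′, with matches in capitals. LEF1 is shown as the member that passed a test below, and EGFR, THBS1 and RBBP7 each as a bright member with a match to another of the motifs.
LEF1 (chr4:108166252-108166551, minus strand, no match): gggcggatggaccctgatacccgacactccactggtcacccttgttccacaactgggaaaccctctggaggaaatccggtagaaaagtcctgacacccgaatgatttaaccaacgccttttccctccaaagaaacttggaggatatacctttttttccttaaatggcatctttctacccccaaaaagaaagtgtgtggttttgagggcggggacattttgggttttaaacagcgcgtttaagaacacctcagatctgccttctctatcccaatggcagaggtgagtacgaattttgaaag
EGFR (chr7:55018767-55019066, plus strand): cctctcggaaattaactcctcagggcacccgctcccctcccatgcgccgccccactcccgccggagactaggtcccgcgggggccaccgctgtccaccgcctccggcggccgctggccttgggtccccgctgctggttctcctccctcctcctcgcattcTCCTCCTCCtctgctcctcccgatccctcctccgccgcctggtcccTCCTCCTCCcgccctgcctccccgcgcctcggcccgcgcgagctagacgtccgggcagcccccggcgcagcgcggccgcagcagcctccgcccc
THBS1 (chr15:39580829-39581128, plus strand): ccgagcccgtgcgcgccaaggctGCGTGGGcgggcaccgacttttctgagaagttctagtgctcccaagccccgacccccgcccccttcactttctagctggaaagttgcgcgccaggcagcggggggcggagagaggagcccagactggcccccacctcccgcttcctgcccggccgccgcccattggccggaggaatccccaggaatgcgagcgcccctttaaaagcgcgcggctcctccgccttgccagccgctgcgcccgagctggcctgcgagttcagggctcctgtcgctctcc
RBBP7 (chrX:16870313-16870612, minus strand): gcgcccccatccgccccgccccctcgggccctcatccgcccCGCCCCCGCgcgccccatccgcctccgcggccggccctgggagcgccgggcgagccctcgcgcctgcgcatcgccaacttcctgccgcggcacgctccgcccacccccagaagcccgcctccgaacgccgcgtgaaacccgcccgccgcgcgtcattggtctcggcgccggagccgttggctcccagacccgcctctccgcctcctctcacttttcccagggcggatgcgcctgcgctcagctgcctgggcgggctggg
In EGFR the TCC repeats began 90 and 44 bases before the start. In THBS1 the GCGTGGG began 227 bases before it. In RBBP7 the GCGGGGGCG lay on the opposite strand, so the capitals show its complement. The LEF1 window held 47% G and C, and its lack of a match covers this window only, not other starts of LEF1. None of these positions was tested for WT1 binding here.

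The first question is how far the siRNA lowered WT1 itself. At its brighter probe set WT1, brighter than 18.4% to 51.8% of the probe sets over the 9 arrays, had log2 levels of 4.76, 5.09 and 4.82 with the WT1 siRNA, 5.59, 5.89 and 5.41 with the scrambled siRNA, and 6.05, 6.58 and 5.89 with reagent alone, in the order of replicate numbers 1, 2 and 3. The 3 groups did not overlap. Within replicate numbers WT1 fell by 0.74 against scrambled siRNA (SE 0.0811, limma adjusted p = 0.00336, n = 3 per group) and by 1.29 against reagent (adjusted p = 0.000619), so that 60.0% and 41.0% of those levels were measured. Its levels with the WT1 siRNA lay within the range of CCND2 (4.64 to 5.23), a member of low signal, where background compresses differences. These shares are therefore of the signal, and the share of the transcript that was left was not tested. WT1 also fell by 0.55 with the scrambled siRNA against reagent (adjusted p = 0.0164). Without the replicate number in the fit none of these falls passed (adjusted p = 0.672, 0.394 and 1). Without the 3 arrays of number 2 the 3 adjusted p-values were 0.0795, 0.0762 and 0.305. With any single array left out both falls with the WT1 siRNA passed, but the fall with the scrambled siRNA was lost in 5 of 9 such fits (adjusted p = 0.0607 to 0.13). These were the fits without any of the 3 scrambled arrays or without reagent replicate 1 or 2. The dimmer WT1 probe set had means of 4.94, 5.11 and 5.08 in the same groups and passed in no comparison.

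The share of the 35 genes that was called was small, as it was over all probe sets. With the WT1 siRNA against scrambled siRNA 1 gene rose, LEF1, and 0 fell. That is 2.86% of the 35, beside 3.27% of all probe sets called in this comparison (1.33% higher and 1.94% lower). Members count by their brightest probe set alone. Counted in that way, 3.7% of all 11963 genes were called here, 1.4% against reagent and 1.21% between the controls. Against reagent alone 0 of the 35 passed in either direction, beside 1.25% of all probe sets (0.41% higher and 0.837% lower). At an unadjusted p under 0.05 there were 6 of 35 genes (17.1%, beside 16.4% of all probe sets) in the first comparison and 4 (11.4%, beside 15.1%) in the second. In the fit without the replicate number limma called 0 of the 35 in either comparison, beside 0.018% and 0% of all probe sets. That fit had 1 of the 35 (2.86%, beside 3.71%) and 0 (beside 2.77%) at an unadjusted p under 0.05. Against both controls with the same sign 0 of the 35 passed, beside 0.644% of all probe sets. With the scrambled siRNA against reagent 1 gene fell, again LEF1, and 0 rose, beside 1.09% of all probe sets (0.554% higher and 0.536% lower). Comparisons that share a control share its arrays and are not independent of each other.

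**Figure D1:**
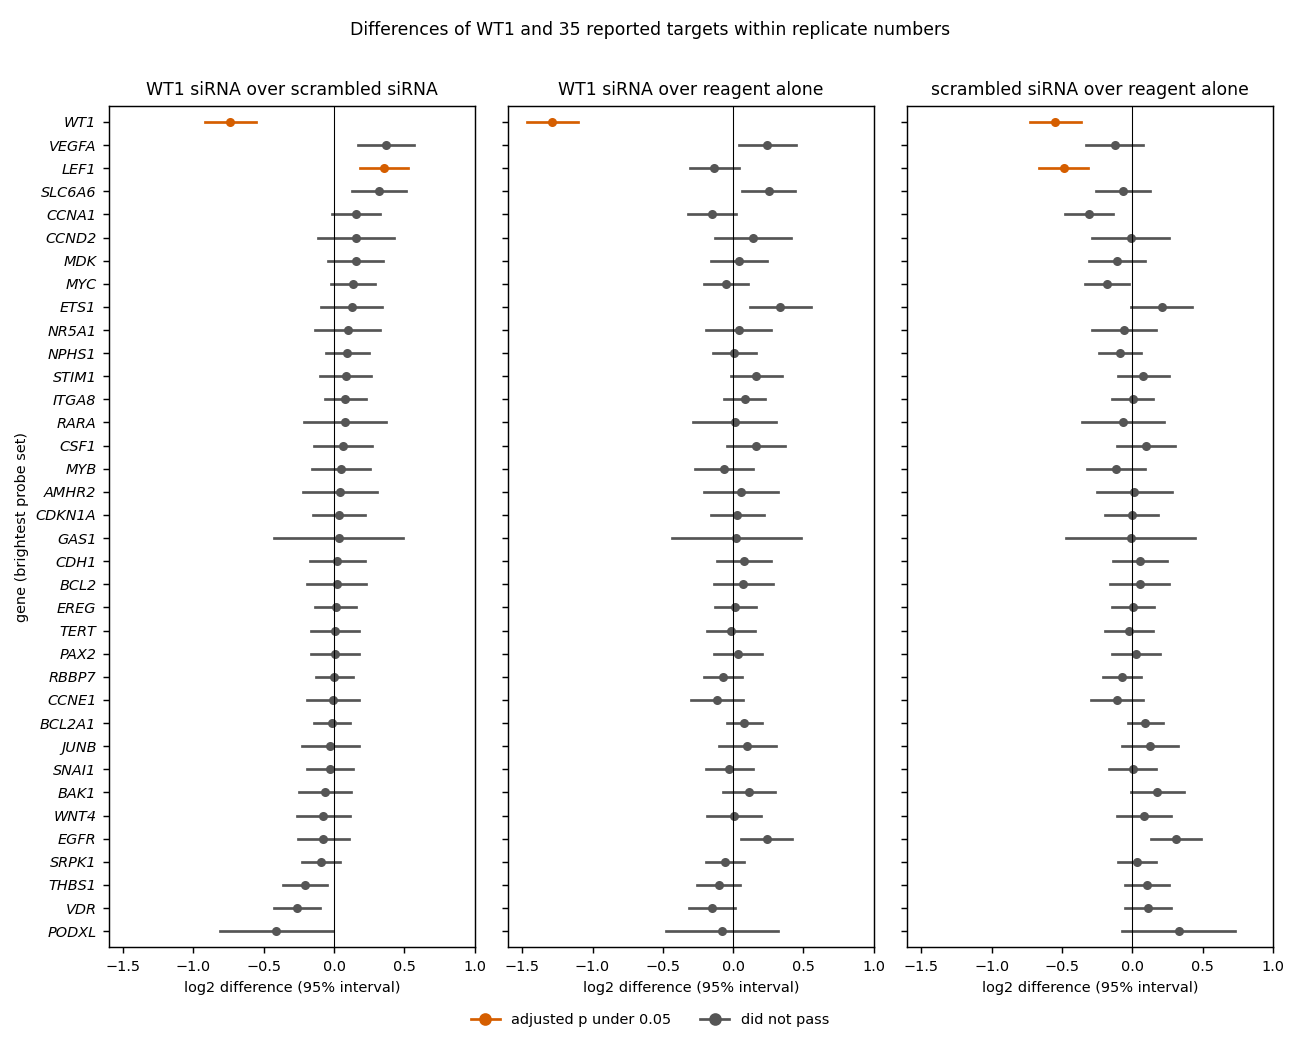
Log2 differences (points) with 95% intervals (bars) for WT1 and the 35 reported targets in the 3 comparisons, from the fit within replicate numbers, with calls in orange. WT1 stands at −0.74, −1.29 and −0.55, LEF1 is the only target in orange, and the targets' estimates lie between −0.49 and 0.37.

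The size of the differences was near that of genes in general. The median difference of the 35 genes was 0.03 against scrambled siRNA and 0.03 against reagent, beside −0.0015 and 0.01 over all genes. The median size without regard to sign was 0.0758 and 0.0784, beside 0.0725 and 0.0741 over all genes. Differences had the same sign in 3 of 3 replicate numbers for 10 of the 35 genes (28.6%) in either comparison. This stands beside 35.1% and 33.4% of all probe sets, and 36.5% and 34.4% of all genes. The 95% interval of the difference lay wholly within 0.5 of 0 on the log2 scale for 31 of the 35 genes against scrambled siRNA and for 34 against reagent. The exceptions were LEF1, VEGFA, SLC6A6 and PODXL in the first comparison and ETS1 in the second. For the brightest probe sets of the rest, a measured difference of more than 0.5 in either direction lies outside the interval. These intervals are not adjusted for the number of genes. They do not cover other probe sets, and the second VDR probe set, given below, stood at −0.50 against scrambled siRNA. The rest also include all 12 members of low signal listed below, where background compresses differences. The arrays of the compared groups did not overlap for 1 member with the WT1 siRNA against reagent (BCL2A1, beside 5.5% of all probe sets) and for 3 with scrambled siRNA against reagent (BAK1, BCL2A1 and LEF1, beside 5.26%).

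LEF1, the nuclear partner of beta-catenin in Wnt signalling, was the one call among the transcription factors. It had log2 levels of 8.29, 8.01 and 7.74 with the WT1 siRNA, 7.87, 7.80 and 7.30 with the scrambled siRNA, and 8.23, 8.25 and 7.95 with reagent alone. The arrays with scrambled siRNA were low, below every reagent array, and overlapped those with the WT1 siRNA. LEF1 rose by 0.35 against scrambled siRNA (SE 0.0772, limma adjusted p = 0.041), higher in 3 of 3 numbers (0.42, 0.21 and 0.43). Against reagent its level with the WT1 siRNA differed by −0.13 (adjusted p = 0.463), lower in 2 of 3 numbers. With scrambled siRNA against reagent it fell by 0.49 (adjusted p = 0.021), lower in 3 of 3. The call against scrambled siRNA was lost when any of 7 of the 9 arrays was left out (adjusted p = 0.0775 to 0.186) and held only without reagent replicate 1 or 3. The fall against reagent was lost without any of the 3 scrambled arrays or without reagent replicate 2 or 3 (adjusted p = 0.0866 to 0.159). Without the replicate number the adjusted p was 1 in each. The 2 dimmer LEF1 probe sets, brighter than at most 28.4% of each array, differed by 0.15 and 0.20 against scrambled siRNA and did not pass.

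**Figure D2:**
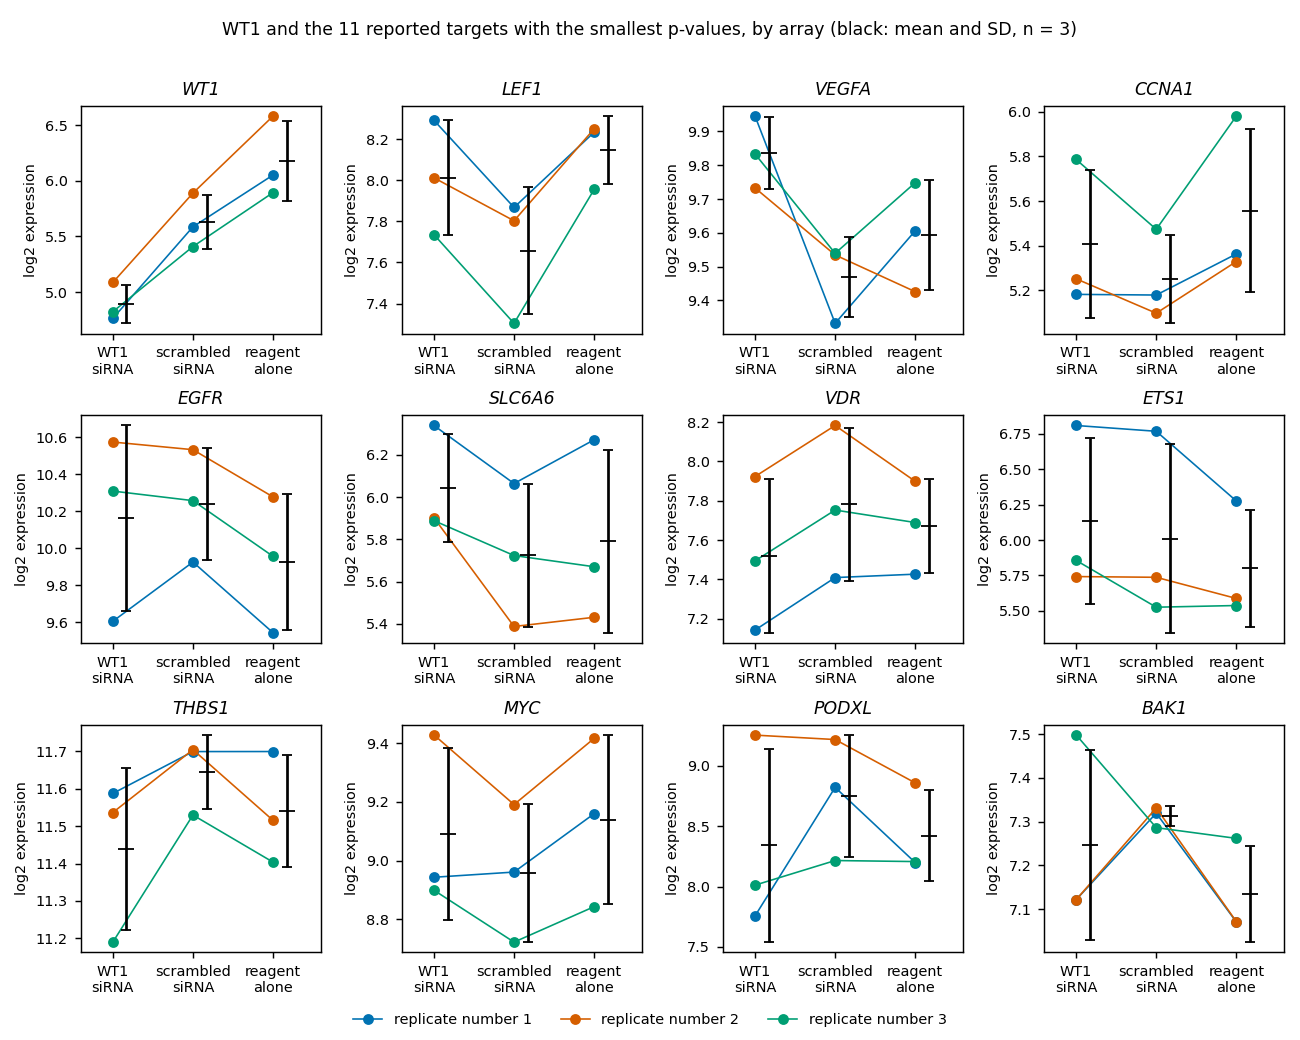
Log2 expression of WT1 and of the 11 reported targets with the smallest p-values in any comparison, by group, with a line for each replicate number and the mean and SD (n = 3) in black. WT1 steps up across the groups in each number, LEF1 dips with the scrambled siRNA, and in EGFR, ETS1, VDR, SLC6A6 and PODXL the lines lie further apart than the groups.

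Among growth factors and receptors, VEGFA, the main growth factor of blood vessels in glioma, came nearest to a call. Its brightest probe set had log2 levels of 9.95, 9.73 and 9.83 with the WT1 siRNA, 9.33, 9.53 and 9.54 with the scrambled siRNA, and 9.61, 9.43 and 9.75 with reagent alone. All arrays with the WT1 siRNA were above those with scrambled siRNA, the only member whose groups did not overlap there (1 of 35, or 2.86%, beside 6.67% of all probe sets), and they overlapped the reagent arrays. The difference was 0.37 against scrambled siRNA (95% interval 0.17 to 0.57, limma adjusted p = 0.0599) and 0.24 against reagent (0.04 to 0.44, adjusted p = 0.238). The next brightest VEGFA probe set, with a smaller difference and a smaller SE, rose by 0.26 against scrambled siRNA (SE 0.056, adjusted p = 0.0367) and differed by 0.25 against reagent (adjusted p = 0.0721). That call was lost with any 1 of the 9 arrays left out (adjusted p = 0.0508 to 0.198). The remaining pair of VEGFA probe sets differed by 0.15 and 0.12 against scrambled siRNA and by 0.17 and 0.25 against reagent, so that all 4 estimates were above 0 in both comparisons.

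EGFR, the epidermal growth factor receptor, had log2 levels of 9.61, 10.58 and 10.31 with the WT1 siRNA, 9.93, 10.53 and 10.26 with the scrambled siRNA, and 9.54, 10.28 and 9.96 with reagent alone. The groups overlapped, and within each number the reagent array was the lowest. EGFR differed by −0.08 against scrambled siRNA (limma adjusted p = 0.726) and by 0.24 against reagent (adjusted p = 0.198), while scrambled siRNA against reagent gave 0.31 (adjusted p = 0.117). Without WT1 siRNA replicate 1 both differences from reagent passed (0.34, adjusted p = 0.0428, and 0.31, adjusted p = 0.0356), and with any other single array left out neither did. Its 4 brightest probe sets lay 0.21 to 0.31 above reagent with the WT1 siRNA, and the 2 dimmer ones did not (−0.06 and −0.14). EREG, epiregulin, a ligand of this receptor, was brighter than at most 4.78% of the probe sets on any array.

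THBS1, thrombospondin 1, a matrix protein that restrains vessel growth, had log2 levels of 11.59, 11.54 and 11.19 with the WT1 siRNA, 11.70, 11.70 and 11.53 with the scrambled siRNA, and 11.70, 11.52 and 11.40 with reagent alone. Arrays with the WT1 siRNA were lower than their scrambled partner in 3 of 3 numbers, and the groups overlapped. The difference was −0.21 against scrambled siRNA (95% interval −0.36 to −0.05, limma adjusted p = 0.158) and −0.10 against reagent (adjusted p = 0.532). The other 4 THBS1 probe sets gave −0.24 to −0.02 against scrambled siRNA. MDK (midkine), CSF1 (the macrophage growth factor), WNT4 and AMHR2 (the receptor of anti-Müllerian hormone) differed by −0.08 to 0.17 against either control, with adjusted p-values of 0.439 or more.

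**Figure D3:**
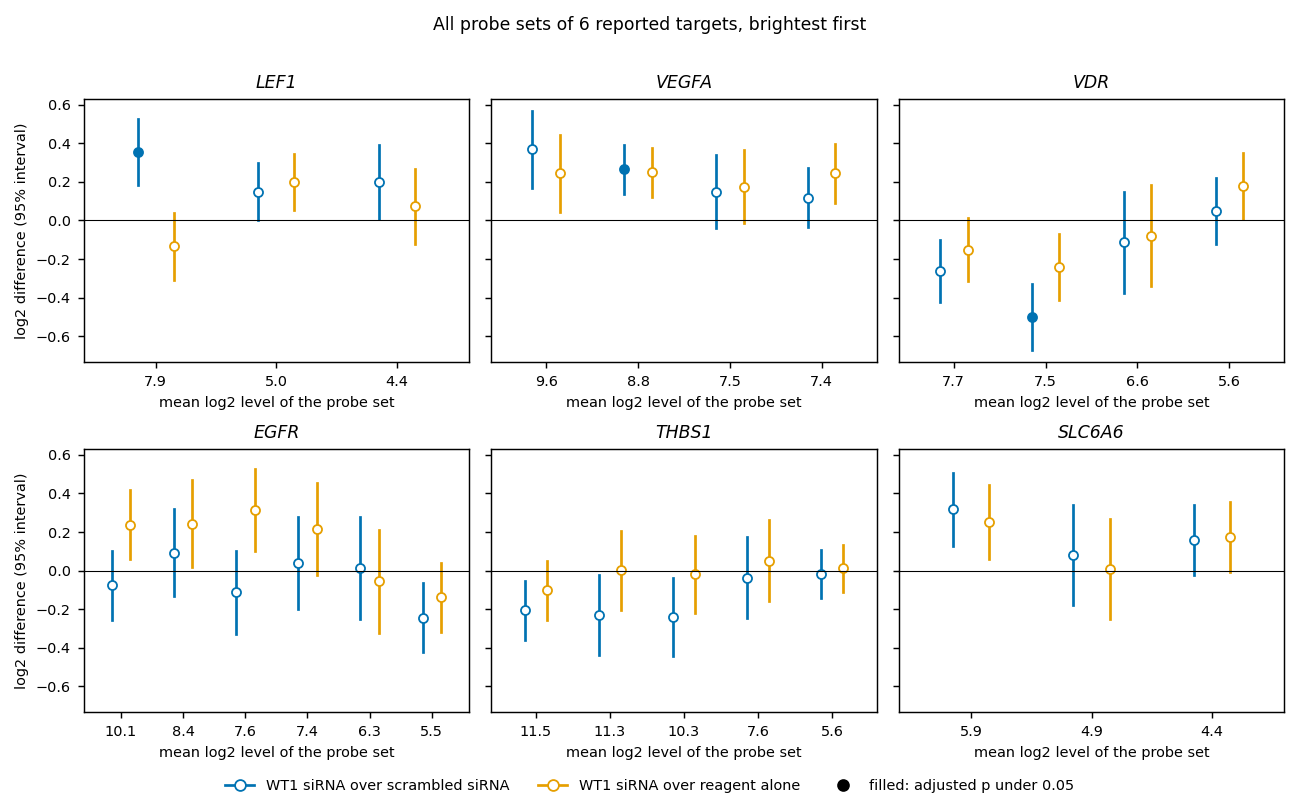
Log2 differences with 95% intervals for every probe set of 6 reported targets, brightest on the left and labelled by mean log2 level, for the WT1 siRNA over scrambled siRNA (blue) and over reagent (orange), with calls filled. Filled points are a LEF1, a VEGFA and a VDR probe set, all against scrambled siRNA, and all 4 VEGFA probe sets lie above 0 in both comparisons.

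Of the nuclear receptors, VDR, the vitamin D receptor, had log2 levels of 7.14, 7.92 and 7.49 with the WT1 siRNA, 7.41, 8.18 and 7.75 with the scrambled siRNA, and 7.43, 7.90 and 7.69 with reagent alone. Within numbers it was lower than with scrambled siRNA by nearly the same amount each time (−0.27, −0.26 and −0.26), although the arrays of the groups overlapped. This difference of −0.26 did not pass (95% interval −0.42 to −0.10, limma adjusted p = 0.0934), and that against reagent was −0.15 (adjusted p = 0.365). The VDR probe set next in brightness fell by 0.50 against scrambled siRNA (SE 0.0765, adjusted p = 0.01) and differed by −0.24 against reagent (adjusted p = 0.171). That fall was lost without scrambled replicate 1 (adjusted p = 0.0531) or 2 (adjusted p = 0.0662). The remaining VDR probe sets gave −0.11 and 0.05 against scrambled siRNA. RARA, the retinoic acid receptor alpha, and NR5A1, a regulator of steroid synthesis, differed by 0.01 to 0.10 against either control and did not pass. Over all 35 further probe sets of 15 members, these VDR and VEGFA probe sets were the 2 calls against scrambled siRNA. That stands beside 3.27% of all probe sets. Against reagent there were 0 calls, beside 1.25%.

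ETS1, a transcription factor of invasive and endothelial cells, had log2 levels of 6.81, 5.74 and 5.86 with the WT1 siRNA, 6.77, 5.74 and 5.53 with the scrambled siRNA, and 6.28, 5.59 and 5.54 with reagent alone. Number 1 was high in every group. The difference of 0.34 against reagent (95% interval 0.12 to 0.55, higher in 3 of 3 numbers) did not pass (limma adjusted p = 0.135), nor did that of 0.13 against scrambled siRNA (adjusted p = 0.598). MYC, a driver of growth and among the best known reported targets, had log2 levels of 8.94, 9.43 and 8.90 with the WT1 siRNA, 8.96, 9.19 and 8.72 with the scrambled siRNA, and 9.16, 9.42 and 8.84 with reagent alone. Its groups overlapped and its differences were 0.13 against scrambled siRNA (95% interval −0.02 to 0.29) and −0.05 against reagent (−0.21 to 0.11). RBBP7, a histone-binding subunit of chromatin complexes, was among the steadiest members, at 10.82, 10.64 and 10.65 with the WT1 siRNA, 10.76, 10.65 and 10.69 with the scrambled siRNA, and 10.80, 10.78 and 10.74 with reagent alone, and its intervals were −0.13 to 0.13 and −0.20 to 0.06. JUNB, MYB, SNAI1 (a repressor of E-cadherin) and PAX2 (a kidney developmental factor) were dim, and their differences were −0.06 to 0.10 against either control.

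The members that act on apoptosis and the cell cycle gave 0 calls among 9 genes in any of the 3 comparisons. Of all probe sets 3.27% were called against scrambled siRNA, 1.25% against reagent and 1.09% between the controls. BCL2, which blocks mitochondrial apoptosis, differed by 0.02 against scrambled siRNA and by 0.07 against reagent, and its relative BCL2A1 was brighter than at most 4.53% of the probe sets on any array. BAK1, which opens the outer mitochondrial membrane, had log2 levels of 7.12, 7.12 and 7.50 with the WT1 siRNA, 7.32, 7.33 and 7.29 with the scrambled siRNA, and 7.07, 7.07 and 7.26 with reagent alone. The array of number 3 with the WT1 siRNA was the highest of the 9, and the difference against scrambled siRNA (−0.07) was below 0 in 2 of 3 numbers. CCNA1, a cyclin best known from meiosis, had log2 levels of 5.18, 5.25 and 5.79 with the WT1 siRNA, 5.18, 5.10 and 5.47 with the scrambled siRNA, and 5.36, 5.33 and 5.98 with reagent alone. Its lowest p was for scrambled siRNA against reagent (−0.31, limma adjusted p = 0.103), and against either control the WT1 siRNA gave 0.16 and −0.15. CCNE1 (cyclin E1), CCND2 (cyclin D2), CDKN1A (the cyclin-dependent kinase inhibitor p21), GAS1 (growth arrest specific 1) and TERT (the catalytic subunit of telomerase) differed by −0.11 to 0.15 against either control. GAS1 had the widest interval of the 35 against reagent, −0.44 to 0.48, since its differences were 0.83, −0.31 and −0.46 in the 3 numbers.

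Adhesion genes of the podocyte and epithelium gave 0 calls among 4 genes, beside the same 3.27%, 1.25% and 1.09% of all probe sets. PODXL, podocalyxin, a sialomucin of the podocyte surface, had log2 levels of 7.76, 9.25 and 8.01 with the WT1 siRNA, 8.82, 9.22 and 8.22 with the scrambled siRNA, and 8.20, 8.86 and 8.21 with reagent alone. Number 1 alone carried most of its difference of −0.41 against scrambled siRNA (−1.06, 0.04 and −0.20 in numbers 1, 2 and 3), which did not pass (limma adjusted p = 0.293). SYNPO (synaptopodin), a podocyte gene that is no member, fell against scrambled siRNA (−0.46, adjusted p = 0.0341, lost without any of 6 of the 9 arrays) and differed by −0.23 against reagent. NPHS1 (nephrin), CDH1 (E-cadherin) and ITGA8 (integrin alpha 8) were dim. The 3 remaining members are SLC6A6, the taurine transporter, STIM1, the calcium sensor of the endoplasmic reticulum, and SRPK1, a kinase of splicing factors. SLC6A6 had log2 levels of 6.34, 5.90 and 5.89 with the WT1 siRNA, 6.06, 5.39 and 5.72 with the scrambled siRNA, and 6.27, 5.43 and 5.67 with reagent alone. It was higher in 3 of 3 numbers against both controls, by 0.32 (95% interval 0.13 to 0.51, adjusted p = 0.0826) and 0.25 (0.06 to 0.44, adjusted p = 0.198), without passing in either. STIM1 had log2 levels of 6.35, 6.07 and 6.40 with the WT1 siRNA, 6.15, 5.98 and 6.44 with the scrambled siRNA, and 6.14, 6.06 and 6.13 with reagent alone, and differed by 0.08 and 0.16. SRPK1 differed by −0.09 and −0.06.

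Signal limits what can be said of part of the list. A gene was called dim where its brightest probe set lay under the 40th percentile of the probe sets on all 9 arrays. This held for 12 of the 35: BCL2A1, CCND2, MYB, JUNB, SNAI1, PAX2, NR5A1, EREG, WNT4, NPHS1, CDH1 and ITGA8. Their differences were −0.08 to 0.15 against scrambled siRNA and −0.06 to 0.14 against reagent. Of these genes 0 were called, beside 3.27% and 1.25% of all probe sets. Background compresses differences of such probe sets, and how far it did so here was not tested. Among the 23 brighter members 1 was called against scrambled siRNA (4.35%) and 0 against reagent, beside the same shares of all probe sets. In a fit of the brighter probe sets alone, 8.57% and 3.97% of those were called. That fit held 16 members. Of these, 2 were called against scrambled siRNA (12.5%, LEF1 and VEGFA) and 0 against reagent.

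The replicate number separated the cultures more than the treatment did. For 30 of the 35 genes the range of the 3 number means was wider than the range of the 3 group means, with medians of 0.25 and 0.115 on the log2 scale. The sum of squares between numbers had a median share of 51.9% over the 35 genes and 60.0% over all genes, and that between groups 12% and 13.8%. Number means lay more than 0.5 apart for 11 members and group means for 0. MDK showed the widest such range, with means of 9.79, 8.88 and 9.87 in numbers 1, 2 and 3. SRPK1 (9.01, 9.61 and 9.37) and CDKN1A (8.92, 8.41 and 8.78) also varied by number while their group means differed by less than 0.1. No source used here says what the numbers stand for.

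**Figure D4:**
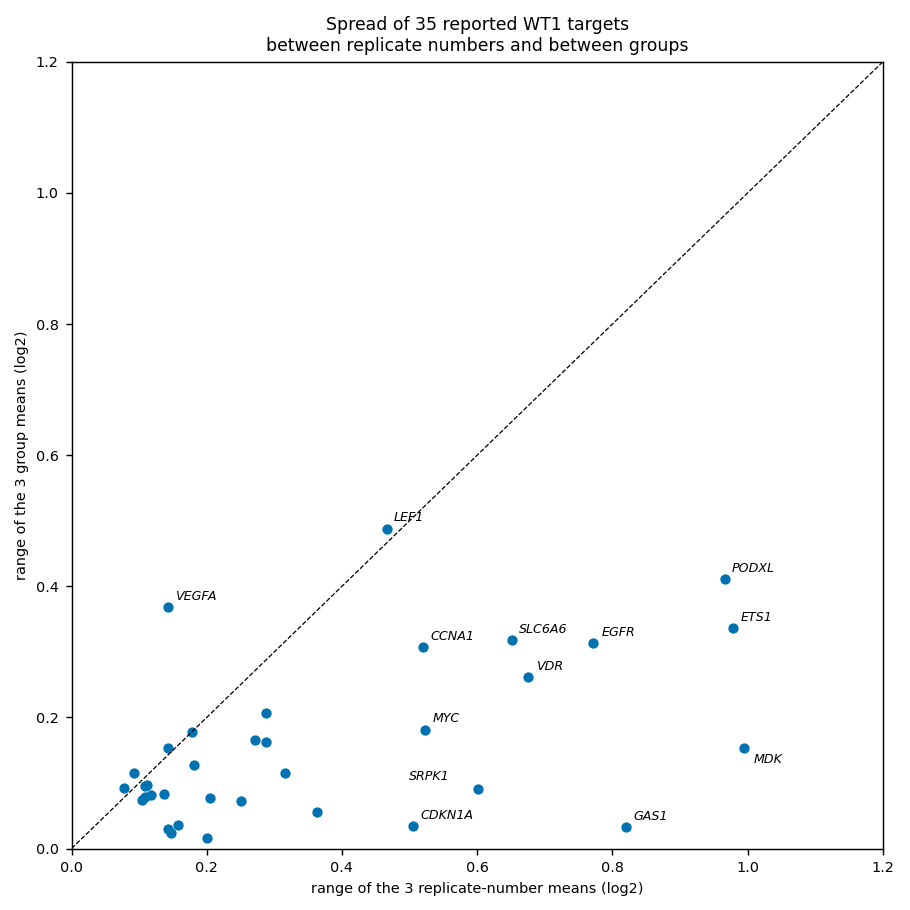
For each of the 35 reported targets, the range of its 3 replicate-number means against the range of its 3 group means, both on the log2 scale, with equality dashed. Most genes (30 of 35) lie below the dashed line, while LEF1 and VEGFA lie above it.

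A further 26 genes reported as WT1 targets were listed beside these, and 23 had a probe set. Against scrambled siRNA 1 rose and 2 fell (3 of 23, or 13%, beside 3.27% of all probe sets), and against reagent 2 rose and 1 fell (13%, beside 1.25%), with medians of 0.004 and 0.08. These genes, like the lists in the next paragraph, were listed with results of these data known, so the shares are descriptions. IGF1R, the receptor of insulin-like growth factor 1, had log2 levels of 9.49, 9.74 and 9.58 with the WT1 siRNA, 9.15, 9.17 and 9.24 with the scrambled siRNA, and 9.14, 9.26 and 9.27 with reagent alone. Every array with the WT1 siRNA lay above all arrays of both controls. IGF1R rose by 0.42 against scrambled siRNA (SE 0.0649, limma adjusted p = 0.011) and by 0.38 against reagent (adjusted p = 0.0279), while its 2 dimmer probe sets did not pass in either. The first call was lost without WT1 siRNA or scrambled replicate 2 (adjusted p = 0.0625 to 0.0982), and the second without any of 6 arrays (0.054 to 0.181). ADGRE5, the adhesion receptor CD97, fell against both (−0.74 and −0.66) but was linked to WT1 by work on this series. It is no independent case, although it is counted in both shares above. TGFB2 fell against scrambled siRNA (−0.45, adjusted p = 0.0131) and differed by −0.14 against reagent (adjusted p = 0.39). CCN2 rose against reagent (0.57, adjusted p = 0.0122) and differed by 0.18 against scrambled siRNA (adjusted p = 0.287). Whether these differences themselves differ between the controls is the comparison of scrambled siRNA with reagent, in which neither passed (adjusted p = 0.0912 and 0.0542). TGFB2 was lost without scrambled replicate 2 or 3 (0.0716 to 0.107), and CCN2 without WT1 siRNA replicate 2 or reagent replicate 1 or 2 (0.0588 to 0.115). ADGRE5 was lost without any of 3 arrays against scrambled siRNA (0.0573 to 0.0792) and of 4 against reagent (0.0581 to 0.161), replicate 2 of both siRNA groups among them. None of these calls passed without the replicate number in the fit.

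Neighbours of the members in their pathways gave calls in 3 of 4 lists against scrambled siRNA. Against reagent calls came in 0 of 4, beside 1.25% of all probe sets. Beside 3.27% of all probe sets called against scrambled siRNA, these were 1 of 8 other genes of the EGF family (12.5%), 2 of 11 other cell cycle genes (18.2%), 1 of 8 genes of epithelial-mesenchymal transition (12.5%) and 0 of 10 of the BCL2 family. In the EGF family HBEGF, a ligand of EGFR, fell against scrambled siRNA (−0.55, limma adjusted p = 0.0242). HBEGF differed by −0.15 against reagent (adjusted p = 0.54) and by 0.40 between scrambled siRNA and reagent (adjusted p = 0.121). Of the BCL2 family 0 passed in any of the 3 limma comparisons. At an unadjusted p under 0.05 there were 0 of 10 against scrambled siRNA (beside 16.4% of all probe sets), 4 against reagent (40%, beside 15.1%) and 3 between the controls (30%, beside 11.9%). Of the cell cycle genes CDK2 (0.44, adjusted p = 0.00751) and CDK6 (0.34, adjusted p = 0.0313), kinases that drive entry into S phase, rose against scrambled siRNA and did not pass against reagent (0.06 and 0.10). CDK2 fell with scrambled siRNA against reagent (−0.38, adjusted p = 0.0221), as LEF1 did. It was the 1 call among the 11 cell cycle genes there (9.09%, beside 1.09% of all probe sets). Of the genes of epithelial-mesenchymal transition ZEB2 rose against scrambled siRNA (0.67, adjusted p = 0.0413), and it differed by −0.07 against reagent and by −0.74 between scrambled siRNA and reagent (adjusted p = 0.0508). With 1 of the 9 arrays left out, the rise of CDK2 was lost only without scrambled replicate 2 (adjusted p = 0.0662) and its fall without any of the 6 control arrays (0.0703 to 0.153). The calls of HBEGF, CDK6 and ZEB2 were lost in 4, 7 and 6 of the 9 such fits (adjusted p = 0.0573 to 0.214). Among these were the fits without replicate 2 of the WT1 siRNA or of the scrambled siRNA. No call of HBEGF, CDK2, CDK6 or ZEB2 passed without the replicate number in the fit. Without the arrays of number 2 none of them passed either (limma adjusted p = 0.144 to 0.373). These genes are given by their brightest probe sets alone.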

How the data were processed

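The authors deposited log2 values per probe set that they made with RMA, per the submitters' processing notes. Software versions and the chip definition behind them are stated in no source used here. The table held 22277 probe sets with 0 missing values. The 62 control probe sets were left out. Symbols came from the platform annotation, and a look-up by gene ID changed 0 of them. Of the tested probe sets 19064 had 1 symbol, 1043 several and 2108 none.

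All 9 arrays entered 1 limma 3.58.1 fit (lmFit, contrasts.fit, eBayes; R 4.3.3), with 1 mean per group and the replicate number as a fixed block. Each comparison was tested two-sided, with Benjamini-Hochberg adjustment over all 22215 probe sets and a threshold of 0.05. The groups share replicate numbers in the titles. Deviations from group means correlated at 0.647 to 0.849 in the 9 pairs of equal number, so the numbers pair the arrays. In the other pairs they correlated at −0.611 to −0.031. Deviations sum to 0 within a group, so these negative values follow on average from the positive ones and add no evidence of pairing. Whether cultures of a group were grown apart is known only from the word biological, and p-values measure the spread left within numbers. Precision is limited by the number of arrays. The fit was tested on simulated data.

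The members, the lists and the use of the block were chosen with earlier results of these data known. Values are given for members called in any comparison, then by smallest p, to 12 genes, and for RBBP7 and the second VDR and VEGFA probe sets, chosen after their values were seen. Each gene of a neighbouring list that passed is named. Alternatives were the fit without the block or with a random block, the compared groups alone, median centring, quantile normalisation, the brighter probe sets only, another variance model, array weights, the mean over a gene's probe sets, and leaving out arrays or numbers.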

Additional observations from a re-analysis of the deposited data

How the results depend on the processing

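WT1 and the 12 genes given by array, with the second VDR and VEGFA probe sets, were recomputed under the alternatives in 45 results, 924 values in all. Of these 0 changed the sign of a called value, 60 lost a call and 15 gained one. A change of sign was counted only for called values.

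Of the 35 members, the counts called against scrambled siRNA, against reagent and between the controls were 1, 0 and 1. They were 0, 0 and 0 with no replicate block, with a random block, and with the mean over a gene's probe sets. They were also 0, 0 and 0 without any of the scrambled replicates, without reagent replicate 2 and without any of the 3 numbers. With only the compared groups fitted they were 0, 0 and 2 (LEF1 and EGFR). Quantile normalisation and the brighter probe sets gave 2 (LEF1 and VEGFA) against scrambled siRNA. The fit of the brighter probe sets held only 16 members. Against scrambled siRNA trend and robust gave 3 (with THBS1 too), and array weights gave 2 (LEF1 and SLC6A6). Between the controls trend and robust gave 2 (LEF1 and EGFR) and array weights gave 3 (with CCNA1 too). With an array or number left out the counts were 0 to 1, 0 to 1 (EGFR, without WT1 siRNA replicate 1) and 0 to 2.

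Over all probe sets the calls were 726, 277 and 242, and 4, 0 and 1 with no replicate block (0 against reagent, with 616 at an unadjusted p under 0.05). They were 356, 118 and 88 with a random block, 390, 3 and 535 with only the compared groups, 1091, 595 and 485 with trend and robust, and 1140, 643 and 782 with array weights. The brighter probe sets gave 441 against reagent. Leaving out an array or number gave 2 to 706, 0 to 465 and 3 to 387, lowest without number 2 in each, so the backgrounds printed beside the members' counts move with single arrays too. The cause was not tested. Low signal limits the 12 dim members.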
